A study of Macaca mulatta with 22 samples.

Results

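Pronuclear and 4-cell embryos of the rhesus macaque were compared to ask how the RNA of the embryo changes, on balance, over its first 2 cleavages. The comparison takes 6 of the 22 single-cell or single-embryo libraries of the series: the 3 pronuclear libraries (PN) and the 3 4-cell libraries (4C). It covers the 14312 of 35468 table entries with at least 1 RPKM (reads per kilobase of transcript, scaled to the reads of the library) in at least 2 of the 22 libraries. Per the labels, each of the 6 was 1 whole embryo, made by injecting a sperm into an oocyte and then cultured in vitro, and its lysate was amplified with a SMARTer Ultra Low Input kit. No strain, age, animal or treatment is named for these groups, so the p-values reflect scatter between single oocytes and embryos, which may be in part technical. The fit takes this scatter from all 22 libraries, not from the 6 compared ones alone. The 2-cell embryos (2C, 2 libraries) lie between the compared stages, and the 7 oocyte libraries (GV, MI and MII stages of maturation) and the 2 8-cell libraries (8C) are used below as reference points.

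A mammalian embryo starts with RNA and protein laid down in the oocyte, and its own genome is nearly silent during the first cleavages. Maternal messages are stored with short poly(A) tails, translated when the tail is lengthened, and removed by deadenylation and decay. In primates the main wave of embryonic transcription comes around the 8-cell stage and includes PRD-like homeobox genes such as DUXA and LEUTX. A kit that primes on poly(A) captures messages by their tails, so that a longer tail and more RNA cannot be told apart, and RPKM gives each message relative to the other RNA of the same library.

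The change was small for most genes. By limma, with Benjamini-Hochberg adjustment over all entries tested, 14 of 14312 entries differed between PN and 4C (0.0978%), 7 of them higher at 4C (0.0489%) and 7 lower (0.0489%). In all 14 the 3 libraries of one stage lay apart from the 3 of the other, which a call by small p favours. Without adjustment, 1372 entries had p under 0.05 (9.59%), 181 higher (1.26%) and 1191 lower (8.32%). All 4C libraries lay above all PN libraries in 376 entries (2.63%) and below them in 1729 (12.1%). The log2 change (4C minus PN, on the log2(RPKM + 1) scale used throughout, which understates the change of low genes) had a median of -0.17 over all entries. Scaling the libraries by a median of ratios moved that median to -0.01, and the share of higher entries among those with unadjusted p under 0.05 from 13.2% to 36.9%. The excess of lower values thus depended in part on the scaling.

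The precision of the comparison was limited. The 95% interval of a log2 change had a median half-width of 0.996, about a 2-fold difference either way, and the exact permutation test of 3 libraries against 3 cannot go below p = 0.1. An uncalled gene is therefore not shown to be steady. The number of calls also depended on the fit. A fit of the 6 libraries alone called 0 entries, with 217 higher and 1147 lower at unadjusted p under 0.05, and a fit of PN, 2C and 4C called 0, with 193 and 1102. Leaving out PN library 3 left 1 higher and 0 lower, and leaving out PN library 1 gave 6 higher and 20 lower. Leaving out 4C library 1 gave 13 higher and 5 lower, and leaving out 4C library 2 gave 13 and 2. Without morula library 2, which had the fewest entries at 1 RPKM, 9 were higher and 17 lower.

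**Figure D1:**
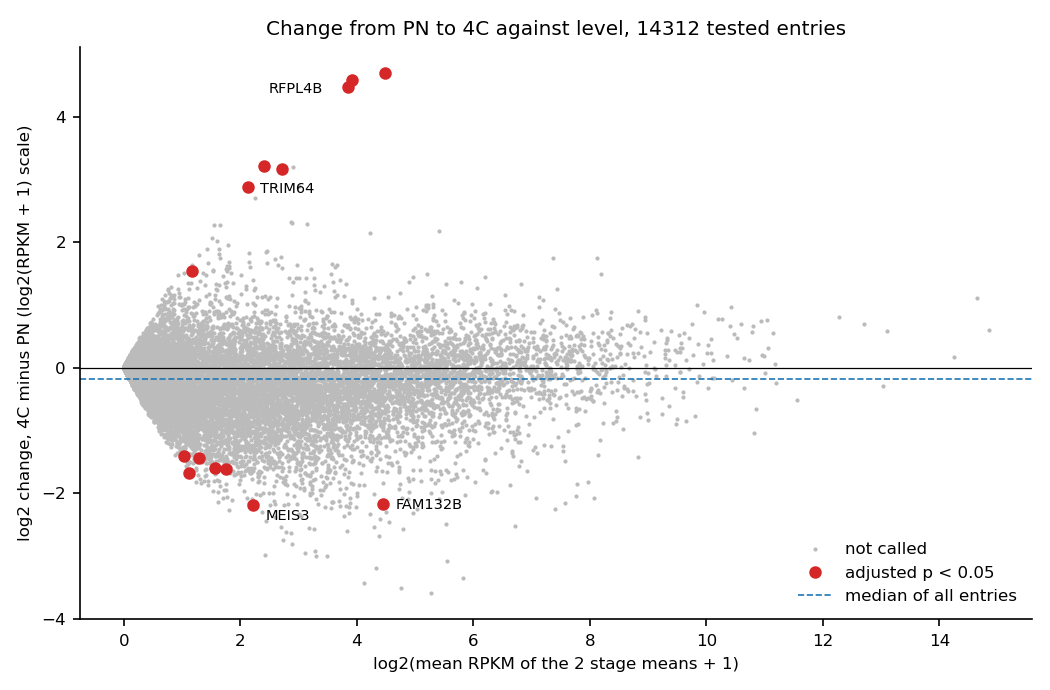
Log2 change from PN to 4C (vertical axis) against the level, as log2 of the mean RPKM of the stage means plus 1 (horizontal axis), for the 14312 tested entries. Red points are the 14 called entries, with 4 named, and the dashed line is the median of -0.17. The 3 called entries with the highest values reach changes of 4.48 to 4.70, and FAM132B lies at -2.18 among uncalled entries with changes as large.

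The estimated depth was 9.92, 7.28 and 10.7 M reads for PN libraries 1, 2 and 3 and 13.6, 9.47 and 14.2 M for 4C. Pearson correlations of log2 values were 0.894 to 0.956 between PN libraries, 0.92 to 0.939 between 4C libraries and 0.866 to 0.947 across the stages, and these ranges overlap. PN library 2 stood apart, at 0.897 and 0.894 with the other PN libraries, and leaving it out lowered the entries with unadjusted p under 0.05 that were lower at 4C from 1191 to 747. That count was 885, 917 and 1130 without 4C library 1, 2 or 3, and 1449 and 1117 without PN library 1 or 3. Of 30 entries of cumulus and granulosa cell markers, 14 were at 0 in all 6 libraries and the rest summed to 18.9 to 24.4 RPKM at PN and 11.3 to 35.5 at 4C, against 10558 to 16010 and 14670 to 18141 for 14 oocyte marker entries. Blood markers reached 101 RPKM in PN library 2 and 21.9 at 4C, from 1 of 13 entries. Of 21 sperm marker entries, 12 were at 0 in all 6 libraries and 8 reached 1 RPKM in at least 1. The sperm entries summed to 125 to 144 RPKM at PN and 104 to 190 at 4C. Most of this came from CABYR (ENSMMUG00000004346), at 37.8 to 91.0 RPKM, and LDHC, at 22.4 to 85.4.

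The 7 entries higher at 4C were nearly absent from the pronuclear embryo. In 6 of the 7 all 7 oocyte libraries were under 1 RPKM, and in 6 of the 7 both 8C libraries lay above every 4C library. The mean of the 2C libraries lay between the PN and 4C means in 6 of 7. The 7 were called for higher values at 4C than at PN, so low PN values and an in-between 2C mean were partly given by the call. The shares of all tested entries with these oocyte, 2C and 8C patterns are not given here.

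RFPL4B, a member of the ret finger protein-like family of RING-domain proteins (ENSMMUG00000002159, chromosome 4, 151588555 to 151589349 as deposited), was at 0, 0.345 and 0 RPKM in PN libraries 1, 2 and 3 and at 40.5, 11.4 and 28.1 in 4C libraries 1, 2 and 3. The log2 change was 4.48 (standard error 0.66, adjusted p = 0.00571). The 2C libraries had 0 and 1.78 RPKM and the 8C libraries 1181 and 1293, so the 4C mean was 2.15% of the 8C mean. It was the only called entry that belonged to any of 34 gene lists.

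TRIM64, of the tripartite motif family of ubiquitin ligases (ENSMMUG00000000414, chromosome 14, 87975789 to 87981217), had 0, 0.063 and 0 RPKM at PN and 4.48, 8.11 and 7.64 at 4C, a log2 change of 2.89 (standard error 0.42, adjusted p = 0.00571). It was the 1 of the 7 that passed 1 RPKM in an oocyte library, at up to 2.45 RPKM. At 8C it stood at 37.3 and 39.4 RPKM, so the 4C mean was 17.6% of the 8C mean.

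4 more Ensembl entries higher at 4C have no symbol in the name table. ENSMMUG00000018475 (chromosome 14, 88179426 to 88182115) was at 0 in all PN libraries and at 33.7, 43.5 and 8.02 RPKM at 4C (log2 change 4.59, adjusted p = 0.00571). ENSMMUG00000013598 (chromosome 14, 88081742 to 88087137) was at 0 in all PN libraries and at 6.92, 6.76 and 12.3 at 4C (3.22, adjusted p = 0.0344). Both lie in the TRIM64 neighbourhood described below.

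ENSMMUG00000028908 (chromosome 19, 6931823 to 6934201) had 0, 1.97 and 0 RPKM at PN and 28.0, 76.2 and 22.3 at 4C (log2 change 4.70, adjusted p = 0.0249), and 766 and 3048 at 8C. ENSMMUG00000030199 (chromosome 6, 17702340 to 17702945) had 0, 0 and 0.618 at PN and 19.7, 5.58 and 7.68 at 4C (3.17, adjusted p = 0.00571). It was the 1 entry still called without PN library 3 (adjusted p = 0.0239). Its neighbour ENSMMUG00000030200 (chromosome 6, 17694358 to 17694963) was not called and overlapped between the stages. It had 0, 0.226 and 1.39 RPKM at PN and 29.1, 0.174 and 2.21 at 4C. At 8C the neighbour had 55.9 and 55.5 RPKM and ENSMMUG00000030199 had 56.9 and 49.1. Whether the 2 entries share reads was not tested. The entry labelled NBEAL1 in the file (IMMRNTR4342, chromosome 12), a name that could not be checked, went from 0.368, 0 and 0 RPKM to 3.48, 2.31 and 1.29 (log2 change 1.54, adjusted p = 0.00571). It was the exception to the later rise, at 0 in both 2C and both 8C libraries.

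**Figure D2:**
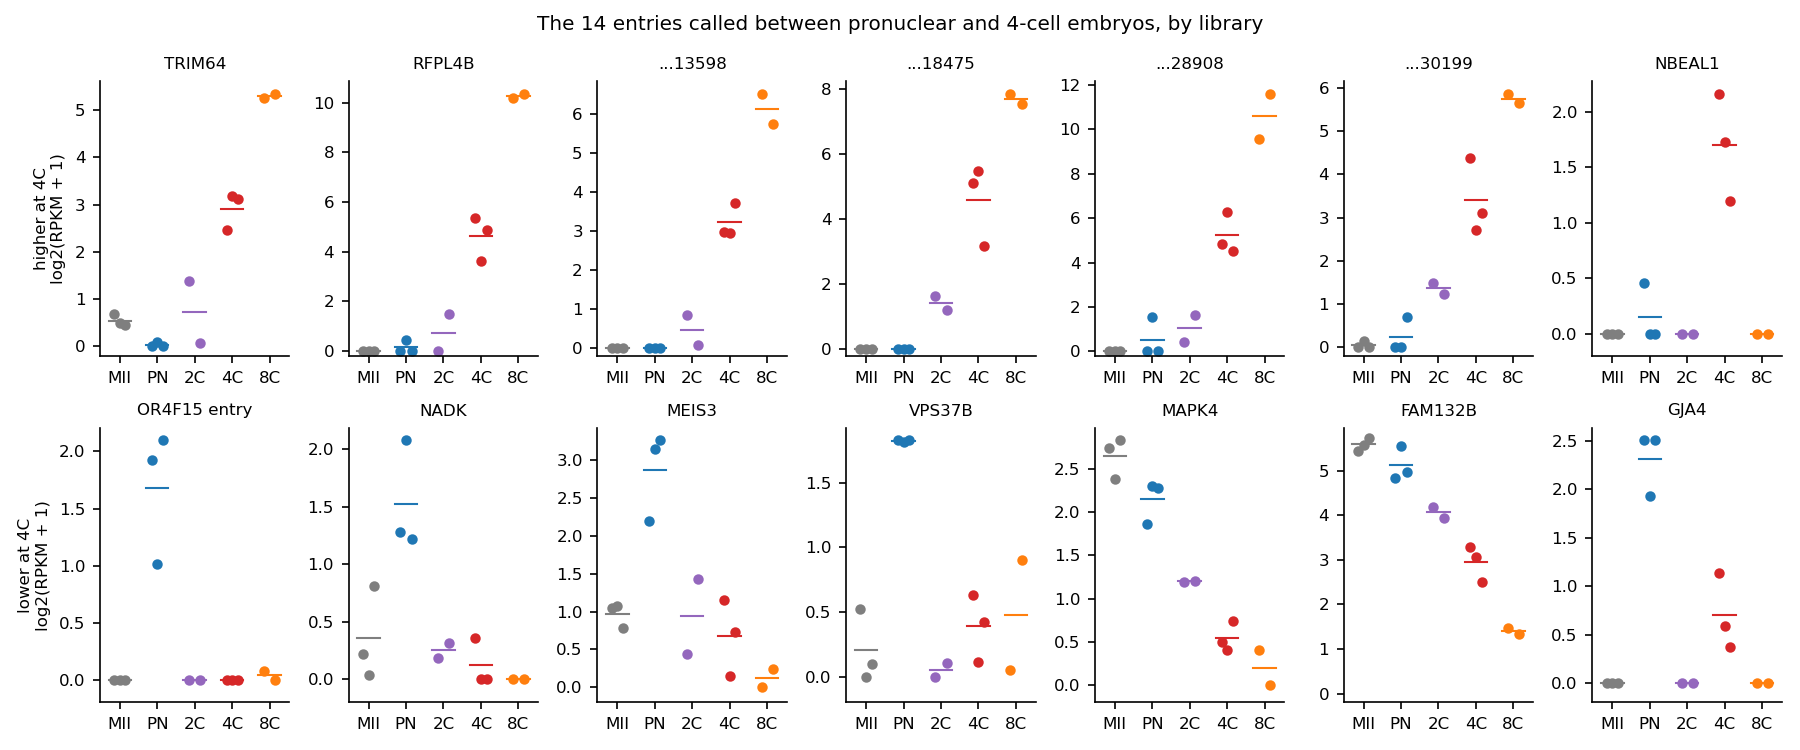
Log2(RPKM + 1) of the 14 called entries in the MII, PN, 2C, 4C and 8C libraries, 1 point per library and a bar at the stage mean, with the 7 higher at 4C above and the 7 lower below; unnamed Ensembl entries carry their last 5 digits. In the upper row RFPL4B goes from 0 to 0.345 RPKM at PN to 11.4 to 40.5 at 4C and 1181 and 1293 at 8C, and in the lower row most entries have their highest points at PN.

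Among the 7 entries lower at 4C, 5 had every MII library (mature oocytes) as well as every 4C library below every PN library. Their values were thus highest at PN among these stages. The 7 were called for higher values at PN than at 4C, so this pattern was partly given by the call. It was also partly given by the filter. Outside PN, NADK reached at most 0.752 RPKM and VPS37B at most 0.866. ENSMMUG00000001622 passed 1 RPKM outside PN only in GV library 2, at 1.88. These entries entered the test only through their PN values, so their peak at PN is no separate result. The share of all tested entries with every MII library below every PN library is not given here. FAM132B, which encodes the hormone erythroferrone (ENSMMUG00000018907, chromosome 12, 102029651 to 102034985), was the most abundant. It had 27.8, 46.1 and 30.4 RPKM at PN and 8.79, 7.32 and 4.66 at 4C, a log2 change of -2.18 (standard error 0.35, adjusted p = 0.0156). The MII libraries had 42.9 to 52.6 RPKM, the 2C libraries 17.3 and 14.3, between the PN and 4C values, and the 8C libraries 1.79 and 1.54. MAPK4, an atypical mitogen-activated protein kinase on chromosome 18, was also present in MII oocytes, with 4.21 to 6.13 RPKM at MII, 2.63, 3.96 and 3.87 at PN, 1.28 and 1.31 at 2C and 0.409, 0.33 and 0.677 at 4C (log2 change -1.60, adjusted p = 0.0397).

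MEIS3, a homeodomain transcription factor (ENSMMUG00000013009, chromosome 19, 53738401 to 53745071), had 0.728 to 1.10 RPKM at MII, 3.58, 7.89 and 8.61 at PN and 1.23, 0.11 and 0.663 at 4C (log2 change -2.19, standard error 0.36, adjusted p = 0.0156). GJA4, a gap junction protein of the follicle (chromosome 1), was at 0 in all MII libraries, at 4.69, 2.82 and 4.68 at PN, at 0 in both 2C libraries and at 1.20, 0.506 and 0.29 at 4C (-1.62, adjusted p = 0.0397). VPS37B, a subunit of the endosomal sorting complex (chromosome 11), was nearly constant at PN, with 2.56, 2.52 and 2.56 RPKM, against 0.548, 0.079 and 0.343 at 4C (-1.44, adjusted p = 0.0397). All 3 of these were higher in each PN library than in any MII or 4C library.

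NADK, the kinase that makes NADP from NAD (chromosome 1), had 1.43, 3.23 and 1.33 RPKM at PN and 0.287, 0 and 0 at 4C (log2 change -1.41, adjusted p = 0.0397). An entry that the file describes as an olfactory receptor (ENSMMUG00000001622, chromosome 7) had 2.79, 1.02 and 3.29 at PN and was listed at 0 in every MII, 2C and 4C library (-1.68, adjusted p = 0.0397). Under median-of-ratios scaling 0 lower calls remained and 5 higher ones did, and of 14 alternatives MEIS3 and FAM132B were called in 7 each, NADK in 4 and the other 4 lower entries in 3 each. Of the higher entries, ENSMMUG00000030199 was called in 12, RFPL4B, TRIM64 and ENSMMUG00000018475 in 11, NBEAL1 in 10, ENSMMUG00000028908 in 7 and ENSMMUG00000013598 in 4.

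TRIM64 and 2 of the unnamed called entries sit close together on chromosome 14. From TRIM64 to the last entry named TRIM49, 551 kb of chromosome 14 (87975789 to 88526913) hold 10 entries, all of them tested. Of these, 3 were called higher at 4C (0.0489% of all tested entries were), 6 had every 4C library above every PN library (2.63% of all), and all 10 log2 changes were above 0 (31.4% of all). The stretch was picked because called entries lie in it. TRIM49, like TRIM64, belongs to the tripartite motif family, and its near-identical copies can share reads, so values of single copies are uncertain.

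The TRIM49 copies differed in level and in timing. ENSMMUG00000010218, 22.2 kb from the TRIM64 start, had 15.3, 21.7 and 17.2 RPKM at PN, 110 and 92.2 at 2C and only 22.6, 14.9 and 27.5 at 4C. ENSMMUG00000030952 was likewise highest at 2C among the cleavage stages before 8C, with 60.0 and 36.3 RPKM against 8.72, 10.6 and 8.20 at PN and 22.9, 6.02 and 24.2 at 4C. Both were thus above their PN and 4C values in each 2C library, and both had higher values at 8C, 239 to 345 RPKM. Both were also present in oocytes, at up to 128 and 88.5 RPKM, against up to 2.45 for TRIM64.

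ENSMMUG00000010216 had 1.31, 2.33 and 1.36 RPKM at PN, 11.5 and 12.6 at 2C and 13.4, 4.96 and 6.76 at 4C (log2 change 1.73, adjusted p = 0.197). ENSMMUG00000023800 had 0.903, 2.00 and 0.786 at PN and 13.1, 5.44 and 4.30 at 4C. Neither was called, although the PN and 4C libraries did not overlap in either. ENSMMUG00000010211 was at 0 in all PN libraries and at 2.71, 0.524 and 4.33 RPKM at 4C, and it too was not called.

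**Figure D3:**
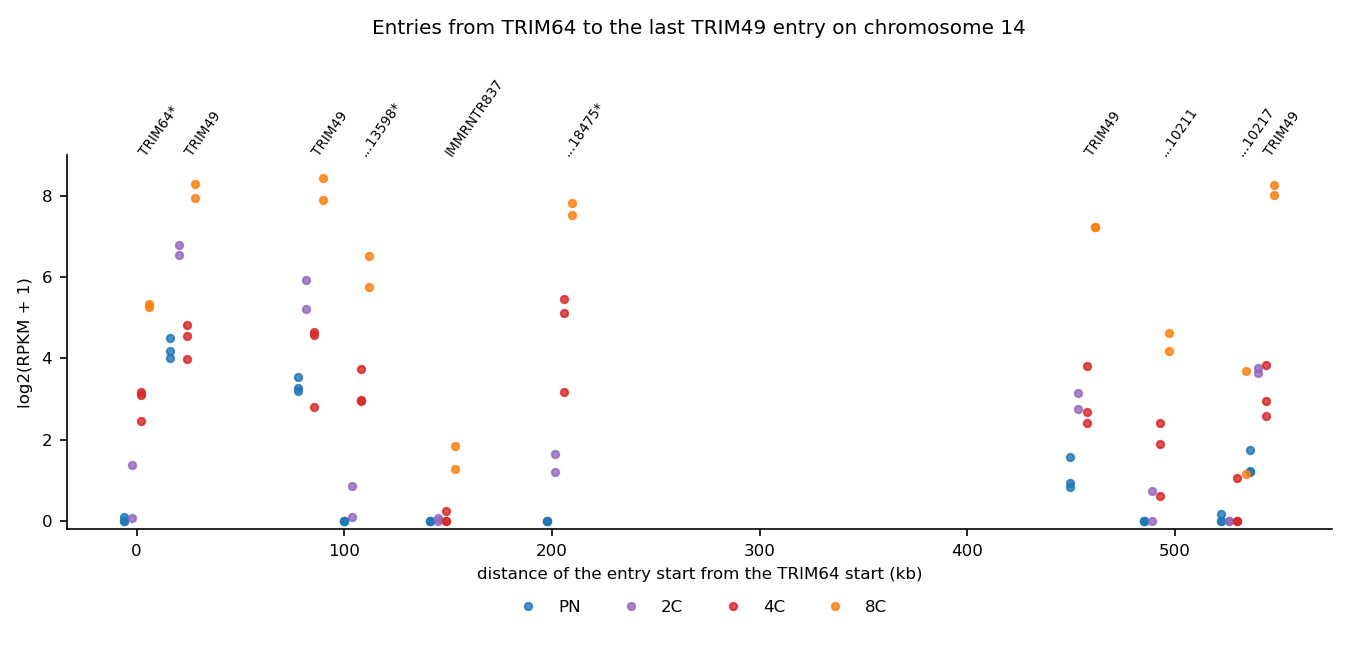
Log2(RPKM + 1) of the 10 entries of the chromosome 14 stretch against the distance of each entry's start from the TRIM64 start in kb, 1 point per library, with stages set slightly apart; a star marks the 3 called entries. The called entries lie at or near 0 in PN and between 4.48 and 43.5 RPKM at 4C, and the first TRIM49 entries are higher at 2C than at PN or 4C.

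The label of the comparison places both stages before genome activation, and the defining genes of that event were checked. DUXA, a PRD-like homeobox gene of the cleavage embryo, had 0, 6.30 and 1.43 RPKM at PN and 2.74, 1.80 and 2.76 at 4C, against 4272 and 3172 at 8C, so the 4C mean was 0.0653% of the 8C mean. ZSCAN4, a marker of the same wave, had 0.93, 4.58 and 0.199 at PN and 3.07, 1.20 and 3.55 at 4C, 0.479% of its 8C mean. ARGFX, another homeobox gene, had 0, 6.86 and 0.954 at PN and 0.448, 0.431 and 1.80 at 4C. KLF17 was at 0 in all PN libraries and reached 0.076 RPKM in 1 4C library. The highest PN value of DUXA, ZSCAN4 and ARGFX was in PN library 2 each time.

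LEUTX (IMMRNTR1244), a PRD-like homeobox gene, came closest to a change among these markers, with 0, 0.94 and 0 RPKM at PN and 5.52, 9.04 and 7.24 at 4C, 0.623% of the 8C mean. The groups did not overlap, but the log2 change of 2.71 (standard error 0.78) gave an adjusted p of 0.207. ZNF280A, a zinc finger gene of the genome activation list, went from 0, 0.064 and 0.087 RPKM to 5.40, 1.72 and 3.95 (2.07, adjusted p = 0.125). The whole genome activation list had 23 tested entries, of which 1 was called higher and 0 lower (0.0489% of all tested entries each way). At unadjusted p under 0.05, 5 were higher and 0 lower (1.26% and 8.32% of all). Its median log2(RPKM + 1) was only 0.157, 1.58 and 0.848 in PN libraries 1, 2 and 3, which left little room to fall. The median log2 change was 0.38. The median was 0.19 without PN library 1, 0.25 without PN library 3 and 0.71 with a pseudocount of 0.1. These members were chosen with their 8C rise known.

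To see how much of the later program was present at 4C, entries were taken with at least 10 RPKM in both 8C libraries and under 1 RPKM in all 7 oocyte libraries, a choice made after the data were seen that used no PN, 2C or 4C value. It gave 129 entries. Of them 3, 10 and 6 reached 1 RPKM in PN libraries 1, 2 and 3, 9 and 10 in the 2C libraries, and 23, 22 and 28 in the 4C libraries. Their summed RPKM was 0.102%, 0.628% and 0.222% of the 8C mean at PN, and 1.75%, 1.83% and 1.11% at 4C. Every 4C library exceeded every PN and 2C library in both measures. The sums leaned on few entries, some of them already called. They were 249, 261 and 159 RPKM in 4C libraries 1, 2 and 3. Of these, ENSMMUG00000028908 gave 28.0, 76.2 and 22.3, ENSMMUG00000018475 33.7, 43.5 and 8.02, and RFPL4B 40.5, 11.4 and 28.1. In PN library 2 the entry named BCL7C (IMMRNTR4213) gave 42.7 of 89.4 RPKM. The sums thus do not show a rise across the 129 entries.

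Of the 129 entries, 5 were called higher (0.0489% of all tested entries) and 0 lower. At unadjusted p under 0.05, 17 were higher (1.26% of all) and 0 lower, and 15 had every 4C library above every PN library (2.63% of all). A further 34 were at 0 in all 3 4C libraries, and the median log2 change was 0.00. Only 1 of the 129 had at least 1 RPKM in all PN libraries. These entries thus had little room to fall, so the 0 lower says little. The shares of all tested entries, many of which could fall, are not a like comparison. The median entry stood at 0.299% of its 8C mean at 4C, and the entry at the 90th percentile at 7.31%. With the threshold at 5 RPKM, also chosen after the data were seen, 226 entries gave 7, 17 and 13 at PN and 29, 26 and 34 at 4C.

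**Figure D4:**
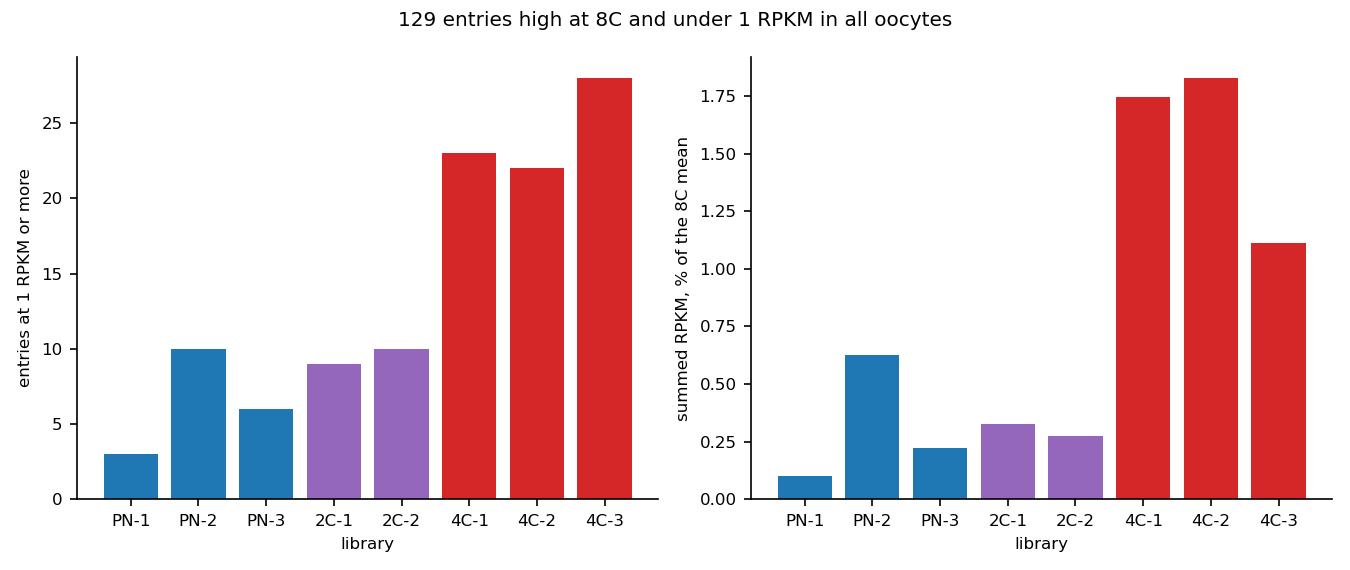
For the 129 entries high at 8C and under 1 RPKM in every oocyte library, the number at 1 RPKM or more (left) and the summed RPKM as a percent of the 8C mean (right), 1 bar per PN, 2C and 4C library. The 4C bars stand at 22 to 28 entries and 1.11% to 1.83%, above every PN bar at 3 to 10 entries and 0.102% to 0.628%.

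The maternal side was described by a panel of 46 oocyte and early embryo genes, of which 45 had a tested entry and 0 were called; the change was below 0 in 30 of the 45, against 63.9% of all tested entries, and 7 had unadjusted p under 0.05, against 9.59%. PTTG1, which encodes securin, the inhibitor of separase, was the most abundant named Ensembl entry at PN. It had 21200, 17521 and 16158 RPKM at PN and 21808, 25595 and 15146 at 4C. BTG4, the adaptor that brings deadenylase to maternal messages, had 2291, 1715 and 2356 at PN and 2002, 1917 and 2046 at 4C (log2 change -0.08, standard error 0.50). The ranges of the 2 stages overlapped in both genes. TUBA1C, an alpha-tubulin, did not overlap, with 2646, 1883 and 2756 at PN and 1078, 1364 and 1085 at 4C (log2 change -1.03, adjusted p = 0.356).

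DPPA3, a maternal factor that protects methylated DNA of the zygote (IMMRNTR2887), had 9293, 4726 and 7576 RPKM at PN and 10502, 9216 and 11762 at 4C (log2 change 0.59, adjusted p = 0.787). DNMT1, the maintenance DNA methyltransferase, had 401, 326 and 456 at PN and 315, 435 and 338 at 4C, with 536 and 997 at 2C. CCNB1, the mitotic cyclin B, had 892, 442 and 722 at PN and 917, 551 and 948 at 4C. In these entries too the stages overlapped. The Ensembl entry of DPPA3 (ENSMMUG00000031962) did not, with 2186, 1435 and 1942 at PN and 2643, 2522 and 2923 at 4C (log2 change 0.56, adjusted p = 0.838).

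AURKA, a spindle kinase, had 1125, 1180 and 1147 RPKM at PN and 956, 990 and 835 at 4C. Every 4C library was below every PN library, but the log2 change was -0.32 (adjusted p = 0.939), and it was 0.01 under median-of-ratios scaling. The oocyte-secreted growth factors GDF9 (IMMRNTR2410) and BMP15 overlapped between the stages, with GDF9 at 135, 184 and 141 at PN and 281, 156 and 184 at 4C. HSPA8, a constitutive chaperone, overlapped between PN (198, 151 and 238) and 4C (211, 175 and 254), yet both 2C libraries lay below all of these, at 49.4 and 14.1 RPKM.

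Members of the egg coat and of the oocyte chromatin had lower values at 4C that did not pass the test. ZP3, the zona pellucida glycoprotein known for sperm binding, had 286, 561 and 377 RPKM at PN and 134, 220 and 112 at 4C (log2 change -1.39, adjusted p = 0.54). ZP2 had 163, 327 and 235 at PN and 127, 95.2 and 104 at 4C (-1.10, adjusted p = 0.491). H1-8, the oocyte linker histone, had 101, 140 and 193 at PN and 42.8, 78.7 and 46.7 at 4C (-1.36, adjusted p = 0.291). In all 3 of these entries the libraries of the 2 stages did not overlap. All 4C libraries lay below all PN libraries in 12.1% of all tested entries, and the number of such panel genes is not given here. Under median-of-ratios scaling the log2 changes of ZP3, ZP2 and H1-8 were -1.06, -0.77 and -1.03. A second entry that the file names H1FOO, the older symbol of H1-8 (IMMRNTR6166), did overlap, with 11.7, 11.6 and 14.997 at PN and 19.9, 11.4 and 14.9 at 4C.

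The subcortical maternal complex is a structure under the oocyte membrane that embryos need to cleave. The list of the complex and its partners gave 0 calls in 17 entries. At unadjusted p under 0.05, 0 were higher and 2 lower (1.26% and 8.32% of all tested entries). The median log2 change was -0.43. It was -0.12 under scaling, -0.54 without PN library 1, -0.28 without 4C library 1 and -0.26 without 4C library 3. NLRP5, a core member, overlapped, with 31.5, 52.5 and 52.4 RPKM at PN and 16.4, 41.5 and 50.0 at 4C. NLRP4 had 1149, 799 and 1186 at PN and 511, 627 and 574 at 4C (-0.85, adjusted p = 0.44). TLE6, another core member, had 6.16, 34.3 and 10.1 at PN and 1.03, 2.84 and 6.35 at 4C (-1.87, adjusted p = 0.262), and its highest value was again in PN library 2. AURKC, the meiotic Aurora kinase, had 335, 244 and 285 at PN and 136, 137 and 192 at 4C (-0.90, adjusted p = 0.521).

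The 34 gene lists held 2194 tested entries, of which RFPL4B alone was called, and 25 of the 34 medians lay below that of all tested entries (-0.17) and 9 above it. Under median-of-ratios scaling, relative to the shifted median of -0.01, 22 lay below. The lowest median was that of the mitochondrial ribosomal proteins, at -0.60 over 63 entries, with 0 higher and 8 lower at unadjusted p under 0.05, where 8.32% of all tested entries were lower. It was -0.32 under scaling and -0.45 without PN library 2. MRPL2, of the large mitochondrial subunit, had 10.4, 18.5 and 12.3 RPKM at PN and 0.209, 0 and 4.35 at 4C (adjusted p = 0.156).

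Nuclear-encoded oxidative phosphorylation had a median of -0.43 over 64 entries. At unadjusted p under 0.05, 0 were higher and 9 lower (1.26% and 8.32% of all tested entries). The median was -0.26 without PN library 2 and -0.16 under scaling. ATP5MC1, a subunit of the ATP synthase ring, had 12.9, 64.0 and 23.6 RPKM at PN and 5.22, 2.10 and 4.79 at 4C (log2 change -2.54, adjusted p = 0.125). The deadenylation and decay list had a median of -0.44 over 37 entries, -0.14 under scaling, with 0 higher and 7 lower. UPF1, the helicase of nonsense-mediated decay, had 1.73, 4.86 and 2.67 at PN and 0.105, 0.13 and 1.31 at 4C (-1.45, adjusted p = 0.174). CNOT7 and CNOT6L, catalytic deadenylase subunits, overlapped, with CNOT7 at 180, 62.5 and 187 at PN and 126, 117 and 129 at 4C.

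Cytosolic ribosomal proteins had 1 higher and 2 lower of 110 entries at unadjusted p under 0.05 (1.26% and 8.32% of all tested entries). Their median was 0.04, above that of all entries. Its sign rested on single libraries: the median was -0.04 without PN library 1, -0.05 without PN library 3 and -0.03 without 4C library 2, and 0.26 without PN library 2 and under scaling. RPL23A had 283, 20.2 and 216 RPKM at PN and 339, 521 and 281 at 4C, where PN library 2 alone was low. RPL8 went the other way, with 38.95, 104 and 41.95 at PN and 18.8, 20.9 and 29.5 at 4C. Neither was called. Proteasome subunits (45 entries) had 0 entries at unadjusted p under 0.05 in either direction, and a median of -0.16, from -0.30 without 4C library 3 to 0.00 under scaling. The C2H2 zinc finger genes named ZNF, the largest list, had 6 higher and 31 lower of 413 and a median of -0.15, from -0.30 without 4C library 3 to 0.00 under scaling.

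Among the cell cycle lists, mitotic cyclins, kinetochore and centrosome genes had 1 higher and 3 lower of 72 at unadjusted p under 0.05. The anaphase-promoting complex and SCF ligase had 0 and 5 of 39. Of all tested entries, 1.26% were higher and 8.32% lower. UBE2C, the ubiquitin-conjugating enzyme of the anaphase-promoting complex (ENSMMUG00000021023), had 29.8, 52.8 and 48.2 RPKM at PN and 7.71, 11.2 and 9.16 at 4C (log2 change -2.08, adjusted p = 0.337). DNA replication and licensing had 0 and 6 of 63, and MCM5, a subunit of the replicative helicase, had 5.67, 15.2 and 7.55 at PN and 1.31, 0.696 and 4.67 at 4C (-1.79, adjusted p = 0.232). Its partner MCM3 overlapped, with 31.0, 61.6 and 38.9 at PN and 43.6, 25.2 and 41.4 at 4C. DNA repair had 1 and 7 of 56, and PARP2, a sensor of strand breaks, was its higher member, with 33.8, 12.6 and 32.5 at PN and 41.7, 79.0 and 73.6 at 4C (1.34, adjusted p = 0.246).

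For RNA handling, the storage and repression list had 0 higher and 3 lower of 29 at unadjusted p under 0.05. The spliceosome had 0 and 12 of 84, and RNA polymerase II with its general factors and Mediator 1 and 8 of 86. Over all tested entries, 1.26% were higher and 8.32% lower. IGF2BP3, an RNA-binding protein of the oocyte, had 153, 203 and 141 RPKM at PN and 51.7, 69.1 and 54.1 at 4C (log2 change -1.48, adjusted p = 0.339), and its 2C libraries, at 178 and 124, were near the PN values. The polymerase subunit POLR2I had 11.05, 82.8 and 15.7 at PN and 3.49, 3.98 and 3.98 at 4C (-2.41, adjusted p = 0.271), again with PN library 2 the highest. Chromatin regulators had 0 and 6 of 93, pluripotency and lineage regulators 0 and 3 of 36. DPPA5, a germ cell and early embryo gene, had 262, 333 and 203 at PN, 157 and 83.4 at 2C and 113, 105 and 93.4 at 4C (-1.32, adjusted p = 0.239), without overlap of PN and 4C.

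**Figure D5:**
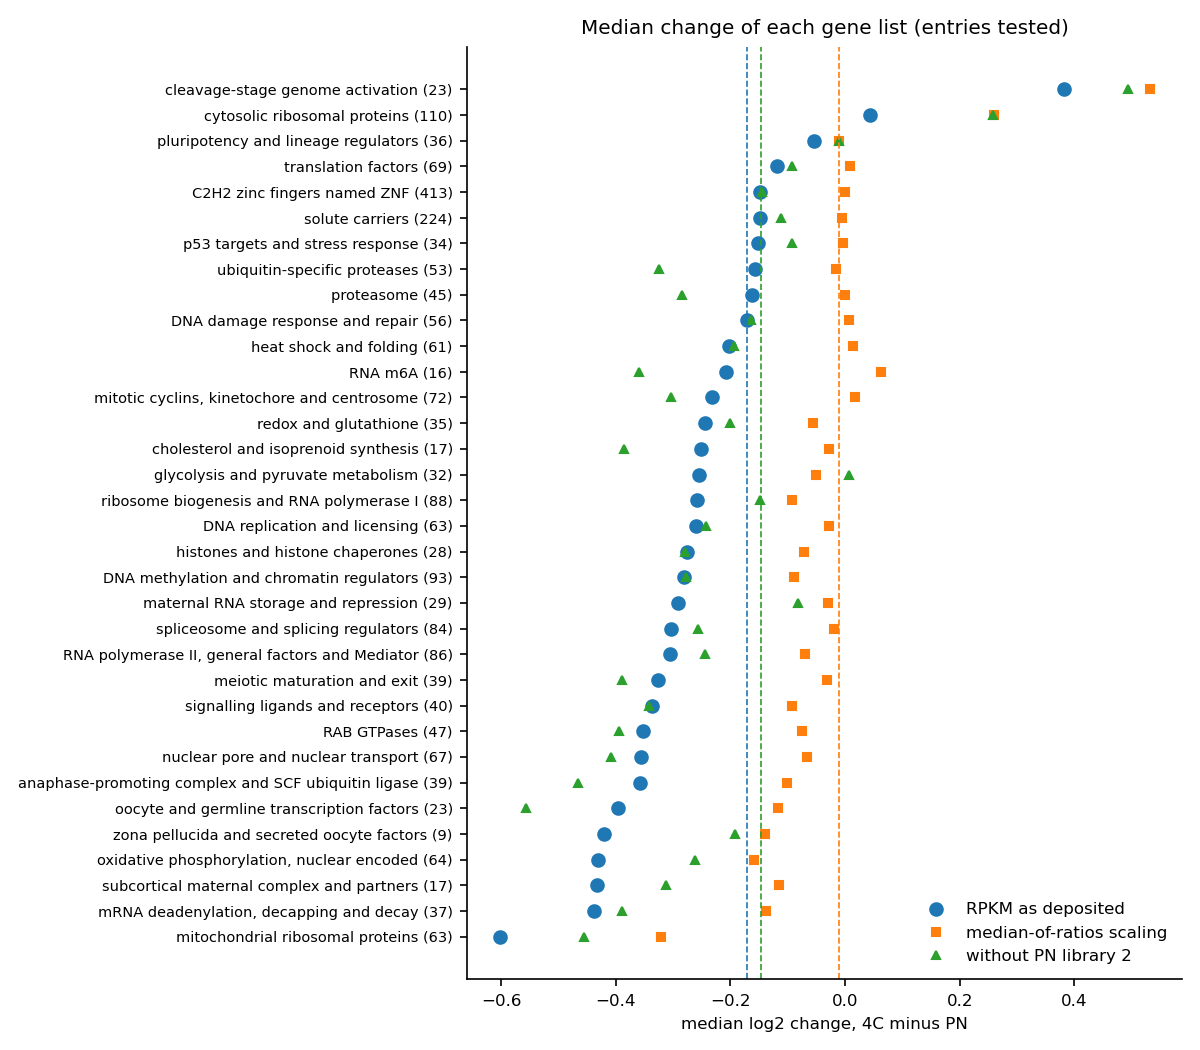
Median log2 change from PN to 4C of each of the 34 gene lists (number of tested entries in brackets), from the deposited RPKM, after median-of-ratios scaling and without PN library 2; dashed lines give the median of all tested entries in each case. Genome activation lies farthest above the line, at 0.38, and mitochondrial ribosomal proteins farthest below it, at -0.60, while scaling moves nearly all lists upward together.

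Several genes of moderate level came next by p without being called; they were picked by that order after the values were seen. RHEBL1, a RAS-related GTPase, had 13.8, 14.1 and 9.47 RPKM at PN, 1.53 and 0.88 at 2C and 2.08, 4.26 and 0.056 at 4C (log2 change -2.36, adjusted p = 0.0573), and 13.8 and 14.1 again at 8C. TXNIP, the thioredoxin-interacting protein, had 12.7, 17.2 and 5.25 at PN and 0, 0.073 and 3.30 at 4C (-2.80, adjusted p = 0.0771), while no oocyte library exceeded 2.78 RPKM. TCTEX1D2, a dynein light chain, had 30.9, 49.4 and 31.1 at PN and 7.25, 1.48 and 14.1 at 4C (-2.46, adjusted p = 0.096). WFDC2, a secreted protease inhibitor-like protein, had 142, 242 and 154 at PN and 36.1, 21.98 and 31.97 at 4C (-2.53, adjusted p = 0.0927), with 115 and 390 at 2C. In none of these genes did PN and 4C overlap, which the choice by small p favours. All 4C libraries lay below all PN libraries in 12.1% of all tested entries.

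By detection alone, 6 entries were gained, with under 0.5 RPKM in every PN library and at least 2 in every 4C library, and 3 were lost. The gained ones were TRIM64, RFPL4B, ENSMMUG00000013598, ENSMMUG00000018475, ENSMMUG00000032337 and the entry named PRR11 (IMMRNTR3342), which was at 0 in all PN libraries and at 3.46, 3.63 and 4.54 at 4C. ENSMMUG00000032337 had 0, 0.409 and 0 RPKM at PN and 4.04, 2.68 and 2.94 at 4C, and 951 and 563 at 8C. The lost ones were NDUFAF5, an assembly factor of respiratory complex I, MED17, a Mediator subunit, and NSUN5, an RNA methyltransferase. NDUFAF5 had 2.11, 2.54 and 4.20 at PN and 0, 0.043 and 0.203 at 4C, and MED17 had 2.40, 2.33 and 2.91 at PN and 0.296, 0 and 0.171 at 4C. Neither was called by limma (adjusted p = 0.162 and 0.439).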

How the data were processed

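The authors deposited 1 table of RPKM values, normalized per library, whose 22 columns match the sample titles; it was used as deposited. Per the submitters' processing notes the build was Mmul_8.0.1; the file names none, and the aligner, counting program and annotation are not given in the sources used here. Symbols came from the name table for 15556 Ensembl entries and from the file for 7024. Depth was estimated from the steps of low values of short features, 90.3% of which were within 0.05 of whole reads.

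Log2(RPKM + 1) values were fitted with limma 3.58.1 (R 4.3.3), a separate mean for each of the 9 stages, trended and robust moderation, and the contrast 4C minus PN. All 22 libraries shared 1 estimate of the spread. A call is a 2-sided Benjamini-Hochberg adjusted p under 0.05. The fitting code was tested on simulated data. Tables used Python 3.11.15.

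The comparison, lists and panel were chosen with earlier results of these data known. The naming rule took the 12 largest called changes each way with an Ensembl identifier, a symbol, stages that did not overlap and a higher mean of at least 10 RPKM (RFPL4B and FAM132B met it), up to 3 called members per list, the panel, and up to 5 entries with a symbol gained or lost each way. The other called entries, the uncalled list members outside the panel, the most abundant genes, the next genes by p and the chromosome 14 stretch were named after their values were seen. Library 1, 2 and 3 of PN and 4C did not deviate together (correlations -0.00341, 0.019 and 0.0436), so the numbers were not used as pairs. Alternatives changed the pseudocount, filter, scaling, libraries fitted and replicates.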

Additional observations from a re-analysis of the deposited data

How the results depend on the processing

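The main count was 7 entries higher and 7 lower at 4C. A pseudocount of 0.1 gave 13 and 4, a filter of 5 RPKM 6 and 2, median-of-ratios scaling 5 and 0, and the fit without morula library 2 gave 9 and 17. The fits of PN and 4C only, and of PN, 2C and 4C only, gave 0 and 0. Leaving out 1 PN or 4C library at a time gave 1 to 13 higher and 0 to 20 lower. Entries called in any gene list were 1 in the main fit, 2 with a pseudocount of 0.1 and without morula library 2, 0 in both fits of fewer stages, and 0 to 2 with 1 library left out. Detection gave 6 gained and 3 lost, 11 and 17 when under 1 RPKM counted as absent, 3 and 0 when presence needed 5 RPKM, and 9 to 11 and 8 to 26 with 1 library left out. With the replicate number as a block, 7 were higher and 2 lower, although the numbers do not pair the embryos. The cause of these shifts was not tested. The fits of fewer stages had fewer libraries and also left the other stages out of the estimate of the spread. Of 168 uncalled entries named or listed as examples, 24 changed sign under at least 1 alternative and 10 were called under at least 1, while no called entry reversed. The depth is an estimate, so low values carry counting error that the table does not give.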
